A study of Neurospora crassa OR74A with 3 samples.

Results

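The genes described are cdt-1 (NCU00801), cdt-2 (NCU08114) and clp1 (NCU05853) of the filamentous fungus Neurospora crassa, 3 of the 9730 genes in the deposited read-count tables, picked out by their identifiers. Messenger RNA was sequenced from mycelia of 3 strains, each cultured in sucrose for 16 h and then moved, after washing, to 2% cellobiose for 4 h. Δ3βG lacks 3 genes for β-glucosidases, which split cellobiose into glucose, and every strain measured carries these deletions. In the published strain of that name they are gh1-1 (NCU00130), gh3-4 (NCU04952) and gh3-3 (NCU08755), which had between 0 and 47 reads per library here. Δ3βGΔncu05853 lacks clp1 in addition, and Δ3βGΔcdt2Δncu05853 lacks both clp1 and cdt-2. cdt-1 is intact in all 3 strains, cdt-2 in Δ3βG and Δ3βGΔncu05853, and clp1 in Δ3βG. A strain lacking cdt-2 but holding clp1, a strain lacking cdt-1, the wild type and mycelia before the transfer to cellobiose were not analysed here.

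Cellodextrins are the short glucose chains, cellobiose the shortest, that secreted cellulases release from cellulose. cdt-1 and cdt-2 encode cellodextrin transporters of the major facilitator superfamily, which carry these sugars across the plasma membrane to be cleaved inside the cell by β-glucosidase. In Neurospora, cellodextrins are also known as inducers of the cellulase genes, and both transporters are known to take part in cellulose sensing. clp1 encodes a protein that resembles these transporters, and its product has also been described as a transporter of cellobionic acid, the oxidised form of cellobiose made by cellobiose dehydrogenase. The series asks what part clp1 plays in cellulase induction.

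Each strain had 1 library, with 8586155 to 9808610 reads assigned to genes. No difference has a replicate check and no p-value is given, and all 95% intervals cover counting error only. Sequenced PCR copies are not independent molecules, so the intervals may be too narrow even for that error. Whether a difference exceeds the spread between cultures of 1 strain could not be measured. Markers of conidia and aerial hyphae, the other cell types that a mycelial culture can hold, were present in all 3 libraries, with 0 of 6 markers at 0 reads in any of them. They summed to 18.9% of gene reads in Δ3βG, 20.2% in Δ3βGΔncu05853 and 0.415% in Δ3βGΔcdt2Δncu05853, of which the hydrophobin gene eas (NCU08457) alone gave 18.7%, 20.0% and 0.305%. The list did not move one way, since over Δ3βG 4 of the 6 markers, eas, con-6 (NCU08769), con-13 (NCU07324) and fl (NCU08726), were at least 2-fold lower in Δ3βGΔcdt2Δncu05853. The other 2 had more reads there, con-8 (NCU09235) with 5510, 4840 and 8993 reads and con-10 (NCU07325) with 692, 460 and 818. Over Δ3βGΔncu05853, 2 markers were at least 2-fold above and 3 at least 2-fold below. Of all genes compared below, 16.5% and 11.9% were that far above and below Δ3βGΔncu05853, and 15.4% that far below Δ3βG. The part of these markers in the differences below was not tested. With bulk RNA, fewer cells of a type and less RNA per cell cannot be told apart.

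clp1 was the most abundant of the 3 genes in Δ3βG and was at or near 0 in both strains that lack it. It had 4190 reads in Δ3βG, 2 in Δ3βGΔncu05853 and 0 in Δ3βGΔcdt2Δncu05853. The Δ3βG library is high and the other 2 are at the bottom of the range, as the labels of the deletions say. In Δ3βG these reads made up 0.0488% of gene reads (exact binomial 95% interval 0.0473% to 0.0503%). Per length the level of clp1 was 249.6 RPKM, the reads per kilobase of exon scaled to all reads in the file (Poisson 95% interval 242 to 257). That placed it 150th among 9730 genes, 23.7 times the median gene of that library. The residual in Δ3βGΔncu05853 was 0.0438% of the Δ3βG level (0.0053% to 0.158%). Against a floor of 3 reads for the 0 reads of Δ3βGΔcdt2Δncu05853, clp1 was at least 1206-fold lower there than in Δ3βG. The other 2 members, by contrast, could be followed across a change of strain.

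cdt-2 was moderately higher in Δ3βGΔncu05853 than in Δ3βG, and close to absent where it is deleted. It had 1907 reads in Δ3βG, 2842 in Δ3βGΔncu05853 and 9 in Δ3βGΔcdt2Δncu05853 (95% Poisson interval of the last 4.12 to 17.1). The first 2 libraries lie near each other and far above the third, the library labelled as lacking the gene. Per length cdt-2 stood at 91.6 RPKM (87.5 to 95.8) in Δ3βG, 560th among all genes, and at 128 RPKM (123 to 133) in Δ3βGΔncu05853, 362nd. Counts scaled with TMM factors, which set the bulk of genes level between libraries, put cdt-2 1.37-fold higher in Δ3βGΔncu05853 (1.29 to 1.45). The 6545 genes compared were those whose mean over the libraries reached 10 CPM (reads scaled to library totals), and 455 of them had a higher ratio. The 9 reads left in Δ3βGΔcdt2Δncu05853 correspond to 0.547% of the Δ3βG level (0.250% to 1.04%). Their place within the gene was not examined, since the tables hold 1 count per gene.

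cdt-1, the member that no strain lacks, was the lowest of the 3 in Δ3βG and among the most abundant transcripts of the whole library in Δ3βGΔcdt2Δncu05853. It had 882 reads in Δ3βG, 1501 in Δ3βGΔncu05853 and 70507 in Δ3βGΔcdt2Δncu05853. The first 2 libraries are low and close together and the third is far above both. Per length it stood at 28.0 RPKM (26.2 to 29.9), 44.6 RPKM (42.4 to 46.9) and 2156 RPKM (2140 to 2172). Its place by RPKM among all genes went from 2419th to 1514th to 26th. The share of gene reads was 0.0103% (0.0096% to 0.0110%) in Δ3βG, 0.0159% (0.0151% to 0.0167%) in Δ3βGΔncu05853 and 0.719% (0.714% to 0.724%) in Δ3βGΔcdt2Δncu05853. By reads cdt-1 was 8th in that last library, between NCU03600 with 81200 reads and NCU04951 with 66077. The 3 genes with most reads there were the cellobiohydrolase genes cbh-1 (NCU07340) and gh6-2 (NCU09680), with 637941 and 317009 reads, and gh6-3 (NCU07190), a further gene of the same glycoside hydrolase family as gh6-2, with 135043.

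**Figure D1:**
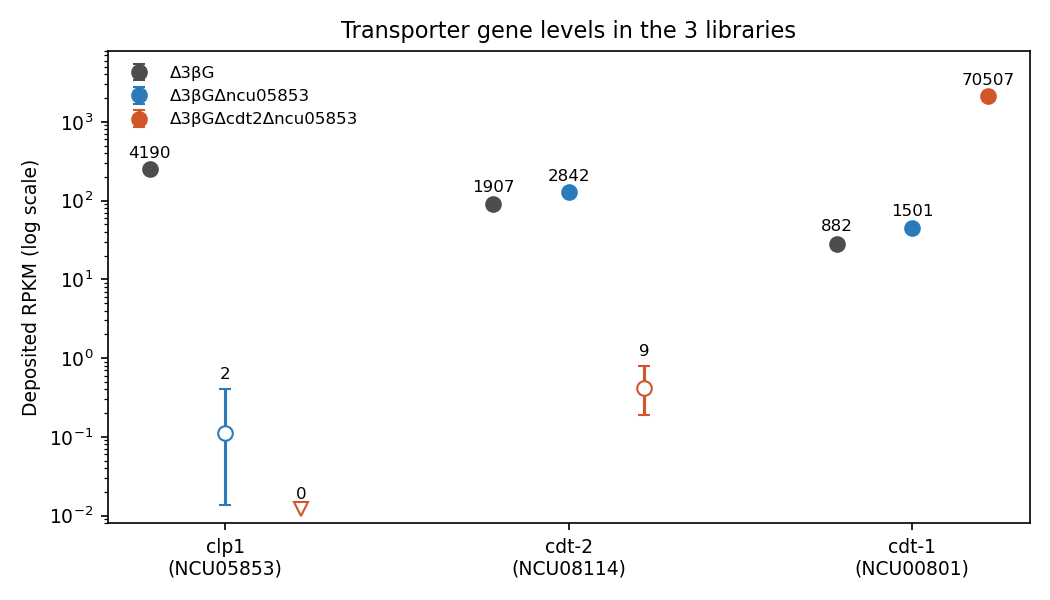
Deposited RPKM of clp1, cdt-2 and cdt-1 in the 3 libraries, on a log axis, with the number of reads above each point. Bars are 95% Poisson intervals, filled points are intact genes, open points are deleted genes, and the open triangle at the bottom marks 0 reads. The cdt-1 point of Δ3βGΔcdt2Δncu05853, at 2156 RPKM, lies above every other point.

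The order of the 3 genes within a library needs no scaling between libraries, only their lengths. In Δ3βG, clp1 stood 2.72-fold above cdt-2 per length (2.58 to 2.88) and 8.91-fold above cdt-1 (8.28 to 9.59), and cdt-2 stood 3.27-fold above cdt-1 (3.02 to 3.55). All neighbours in that order were further apart than their counting intervals. In Δ3βGΔncu05853 cdt-2 stood 2.86-fold above cdt-1 (2.69 to 3.05). Summed over the 3 genes, the level was 369 RPKM in Δ3βG, of which clp1 gave 67.6%, cdt-2 24.8% and cdt-1 7.59%. In Δ3βGΔncu05853 the sum was 172 RPKM, with 74.1% from cdt-2 and 25.9% from cdt-1. In Δ3βGΔcdt2Δncu05853 it was 2156 RPKM, with 99.98% from cdt-1. The strain with 1 of the 3 genes intact thus had the highest summed level, and the strain with 2 intact the lowest. cdt-1 and cdt-2 alone summed to 119.6 RPKM in Δ3βG and to 172 in Δ3βGΔncu05853.

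In Δ3βGΔncu05853 against Δ3βG both intact transporter genes were higher, by less than 2-fold. cdt-1 was 1.56-fold higher (1.44 to 1.70), and 170 of the 6545 genes compared had a higher ratio. The fold of cdt-1 exceeded that of cdt-2 by a factor of 1.14 (95% interval of the odds ratio 1.03 to 1.27), a quantity that does not depend on scaling. Few genes differed between these libraries. Of the genes compared, 0.565% reached a 2-fold higher level and 0.672% a 2-fold lower one, and the median log2 ratio of all of them was 0.00.

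In Δ3βGΔcdt2Δncu05853, cdt-1 was 92.6-fold higher than in Δ3βG (86.6 to 99.0) and 59.3-fold higher than in Δ3βGΔncu05853 (56.3 to 62.4). These comparisons share libraries, so they are not independent of each other. On the log2 scale the difference between Δ3βG and Δ3βGΔcdt2Δncu05853 was 6.53, of which 0.64, or 9.85%, lay between the first 2 strains and 5.89 between the last 2. Of the 6545 genes, 61 had a higher ratio than cdt-1 against Δ3βG, and 62 against Δ3βGΔncu05853. Against Δ3βG, 19.4% of the genes reached a 2-fold higher level and 15.4% a 2-fold lower one, or 1267 and 1008 genes. Against Δ3βGΔncu05853 the shares were 16.5% and 11.9%, or 1082 and 782 genes.

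The size of the cdt-1 fold depended on scaling. Scaled on library totals without eas, the scaling that lowered it most, cdt-1 was 57.1-fold higher than in Δ3βG (53.4 to 61.1) and 36.4-fold higher than in Δ3βGΔncu05853 (34.6 to 38.3). On that scale the median of all genes moved by -0.70 in both comparisons, and the genes at least 2-fold apart numbered 697 higher and 2515 lower against Δ3βG and 556 higher and 2455 lower against Δ3βGΔncu05853. Scaled on library totals the numbers were 882 and 1765 against Δ3βG, and 751 and 1541 against Δ3βGΔncu05853. A scaling moves the ratio of every gene alike, so the place of cdt-1 among the genes, 62nd from the top against Δ3βG, does not depend on it. With a prior of 5 counts in place of 0.5 it was 53rd.

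**Figure D2:**
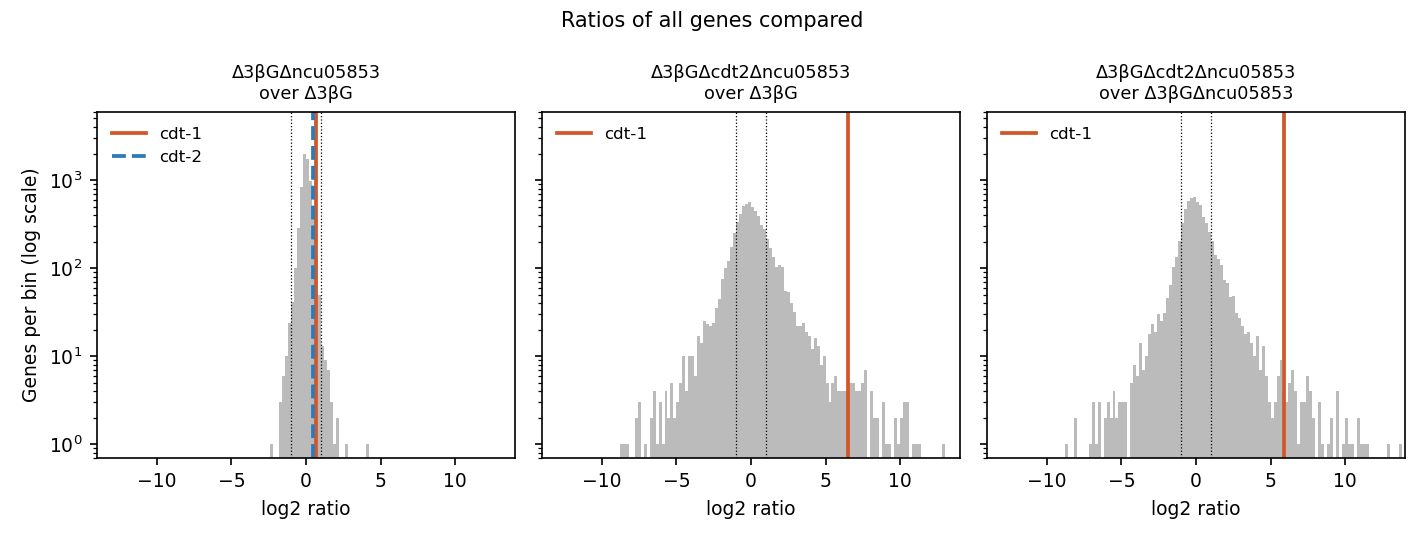
Histograms of log2 ratios of the 6545 genes compared, with a log axis for genes per bin of 0.2, for the 3 comparisons. Solid lines mark cdt-1 at 0.64, 6.53 and 5.89, the dashed line marks cdt-2 at 0.45 where it is intact in both strains, and dotted lines mark 2-fold; cdt-1 lies inside the dotted lines in the first panel and far to the right in the others.

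Transporters of other sugars were compared next, from a list of 7 further genes known to be raised when Neurospora grows on plant cell wall material and a list of 5 glucose transporters and sensors, which share NCU04963 and hgt-1. With the 3 members this made 13 genes, and all of them passed the mean of 10 CPM. NCU06138, of the plant cell wall list, did so only through Δ3βGΔcdt2Δncu05853. In Δ3βG the order per length began with hgt-1 (NCU10021), a high-affinity glucose transporter gene, at 253 RPKM (246 to 259), and clp1 at 249.6. Their intervals overlap, so the order of these neighbours is not resolved. cdt-2 followed in the 3rd place, the glucose sensor gene sor-4 (NCU02582, also named rco-3) in the 4th at 33.5 RPKM (31.6 to 35.5), and cdt-1 in the 5th. The interval of cdt-1 overlaps that of the high-affinity glucose transporter gene NCU04963, which came next at 25.9 RPKM (23.8 to 28.2). In Δ3βGΔncu05853 cdt-2 was 2nd and cdt-1 3rd, behind hgt-1 at 263 RPKM. In Δ3βGΔcdt2Δncu05853 cdt-1 was 1st and held 54.3% of the summed RPKM of the 13 genes, against 3.51% in Δ3βG and 7.19% in Δ3βGΔncu05853. It stood 4.45-fold above NCU05897 and 4.48-fold above hgt-1, the next in order, whose intervals overlap at 484 RPKM (475 to 493) and 481 RPKM (472 to 490).

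Of the 7 genes of the plant cell wall list, 0 were at least 2-fold apart in Δ3βGΔncu05853 against Δ3βG, beside 0.565% of all genes higher and 0.672% lower. Their median log2 ratio was 0.17, beside 0.00 for all genes. The highest was NCU05897, at 491 reads in Δ3βG and 851 in Δ3βGΔncu05853, 1.59-fold higher (1.42 to 1.78), close to the 1.56-fold of cdt-1. Against Δ3βG, all 7 were at least 2-fold higher in Δ3βGΔcdt2Δncu05853, where 19.4% of all genes were, with a median log2 ratio of 4.19 beside -0.03 for all genes. Each was lower in fold than cdt-1. NCU05897 was 29.1-fold higher (26.6 to 31.9) and the galacturonic acid transporter gene NCU00988 20.3-fold higher (16.9 to 24.5). At the other end of the list were NCU05519, 2.32-fold higher (2.07 to 2.61), and hgt-1, 2.29-fold higher (2.22 to 2.36). Under 4 of the 5 other scalings NCU05519 and hgt-1 came below 2-fold in this comparison, at log2 ratios of 0.50 to 0.95, which leaves 5 of 7.

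The glucose transporter list moved both ways beside cdt-1. NCU01633, known as glt-1 and coding for a low-affinity glucose transporter, had 623 reads in Δ3βG, 305 in Δ3βGΔncu05853 and 108 in Δ3βGΔcdt2Δncu05853. Each library was below the one before it, the reverse of the order for cdt-1. NCU01633 was 2.23-fold lower in Δ3βGΔncu05853 than in Δ3βG (1.94 to 2.56), 1 of the 0.672% of genes that much lower, and 2.24-fold lower in Δ3βGΔcdt2Δncu05853 than in Δ3βGΔncu05853 (1.79 to 2.81). sor-4 had 1160, 1097 and 651 reads, and NCU08152 had 623, 386 and 349. Both were within 2-fold in each comparison with TMM factors, and on library totals both were more than 2-fold lower in Δ3βGΔcdt2Δncu05853 than in Δ3βG, at log2 ratios of -1.02 and -1.03.

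**Figure D3:**
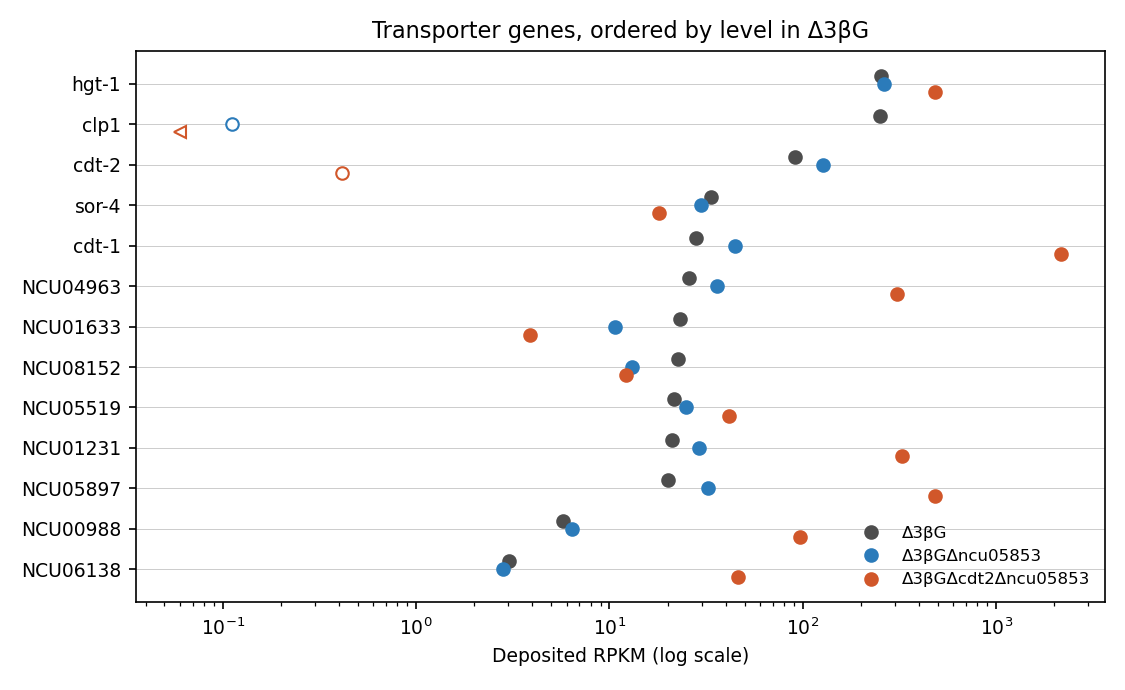
Deposited RPKM, on a log axis, of the 3 members and 10 further transporter genes, 1 row per gene in the order of the Δ3βG library, with 1 point per library. Open points are deleted genes and the open triangle marks 0 reads. cdt-1 moves from 28.0 to 44.6 to 2156 RPKM, and NCU01633 moves the other way, from 23.2 to 3.88 RPKM.

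The enzymes that act on the same sugars were read beside the transporters. Cellobiose dehydrogenase makes cellobionic acid, and NCU09425 is known as the cellobionic acid phosphorylase gene that works downstream of clp1's product. NCU09425 had 722 reads in Δ3βG, 779 in Δ3βGΔncu05853 and 8980 in Δ3βGΔcdt2Δncu05853, so the strain that lacks only clp1 lay next to its parent. It was 1.01-fold lower in Δ3βGΔncu05853, with an interval from 1.12-fold lower to 1.10-fold higher, and 14.4-fold higher in Δ3βGΔcdt2Δncu05853 than in Δ3βG (13.4 to 15.6). The cellobiose dehydrogenase gene cdh-1 (NCU00206) had 121, 119 and 51522 reads. cdh-2 (NCU05923), which did not pass the mean of 10 CPM, had 39, 33 and 69. cdh-1 and NCU09425 therefore stood at least 2-fold higher than in Δ3βG in Δ3βGΔcdt2Δncu05853, a strain without clp1, as did 19.4% of all genes. For cdh-2 this depended on scaling, with a log2 ratio of 1.03 that became 0.63 on library totals and 0.33 without eas.

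Of the β-glucosidase genes that the strains still hold, gh3-6 (NCU07487) had 50, 81 and 47034 reads in Δ3βG, Δ3βGΔncu05853 and Δ3βGΔcdt2Δncu05853. gh3-5 (NCU05577) had 423, 661 and 1553 reads, gh3-2 (NCU08054) had 339, 422 and 569, and gh3-1 (NCU03641), under the mean of 10 CPM, had 45, 60 and 176. All 4 had ratios above 1 in both strains against Δ3βG, where the median log2 ratios of all genes were 0.00 and -0.03. In Δ3βGΔncu05853 the intervals of gh3-2, 1.14-fold (0.99 to 1.32), and gh3-1, 1.22-fold (0.82 to 1.84), include 1. Of the 3 that passed, 0 were at least 2-fold above Δ3βG in Δ3βGΔncu05853, where 0.565% of all genes were, and 2 in Δ3βGΔcdt2Δncu05853, where 19.4% were, gh3-2 being the exception at 1.94-fold (1.70 to 2.23). Of those 2, gh3-6 passed only through Δ3βGΔcdt2Δncu05853, so the filter itself set its place in this count.

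In Δ3βGΔcdt2Δncu05853 against Δ3βG, most cellobiohydrolase and endoglucanase genes listed had a higher ratio than cdt-1, and most regulators a lower one. Of 7 cellobiohydrolase and endoglucanase genes, which release cellodextrins from cellulose, 6 were at least 2-fold higher in Δ3βGΔcdt2Δncu05853 than in Δ3βG, with a median log2 ratio of 9.97, beside 19.4% of all genes and a median of -0.03. gh6-1 (NCU03996), at 14 reads in Δ3βG and 16 in Δ3βGΔcdt2Δncu05853, was the exception, and did not pass the mean of 10 CPM. The other 6 passed, with a median log2 ratio of 10.09. Of them, gh5-1 (NCU00762), with 40, 27 and 41559 reads, passed only through Δ3βGΔcdt2Δncu05853. Among the same 6, gh7-2 (NCU04854) had a lower ratio than cdt-1, at 5.54. Of 6 regulator genes 5 were at least 2-fold higher and cre-1 (NCU08807), the carbon catabolite repressor, was 2.09-fold lower (1.89 to 2.31), in a comparison where 19.4% of all genes were that much higher and 15.4% that much lower. clr-2 (NCU08042), an activator of cellulase genes and of cdt-1 and cdt-2, had 42, 57 and 8004 reads, and was the 1 regulator of the list with a higher ratio than cdt-1, at a log2 ratio of 7.77. The log2 ratios of the other 4 were 3.11 for clr-1 (NCU07705), 4.27 for xlr-1 (NCU06971), 4.35 for vib-1 (NCU03725) and 5.62 for NCU05846. In Δ3βGΔncu05853 against Δ3βG, 0 of these 13 enzyme and regulator genes, gh6-1 included, were at least 2-fold apart. Of all genes that passed, 0.565% were that much higher and 0.672% lower.

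**Figure D4:**
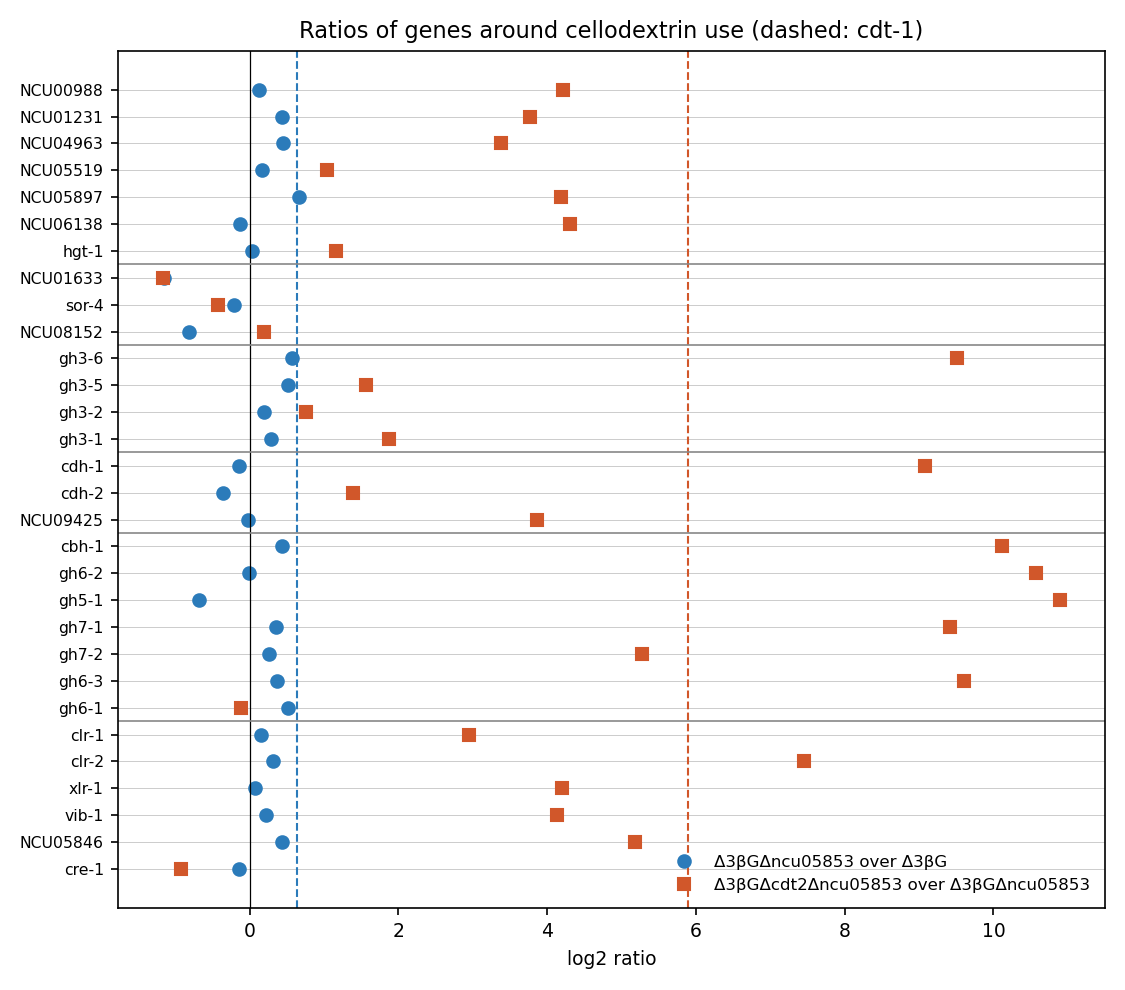
Log2 ratios of 30 genes of the transporter, enzyme and regulator lists, 1 row per gene, with grey lines between the lists. Circles give Δ3βGΔncu05853 over Δ3βG, squares Δ3βGΔcdt2Δncu05853 over Δ3βGΔncu05853, and the dashed lines the cdt-1 values of 0.64 and 5.89; most circles lie near 0 and most squares to the right of 1.

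The genes most like cdt-1 in pattern were sought among the 6545 genes compared, by the distance between log2 CPM profiles over the 3 libraries, each centred on its own mean. With 3 libraries the measure rests on 2 differences per gene. The nearest were NCU10039 at a distance of 0.08, with 12, 20 and 1046 reads, and gh45-1 (NCU05121), of an endoglucanase family, at 0.10, with 24, 39 and 2045 reads. Then came NCU09024, xr (NCU08384), the xylose reductase gene of pentose catabolism, NCU05574, acw-8 (NCU07277), gh61-6 (NCU03328), a lytic polysaccharide monooxygenase gene, NCU09689, nit-6 (NCU04720), the nitrite reductase gene, and NCU00972 at 0.41. Their log2 ratios in Δ3βGΔncu05853 over Δ3βG ranged from 0.08 to 1.14, beside 0.64 for cdt-1. All 10 had fewer reads than cdt-1 in every library. NCU10039, gh45-1, NCU09024, xr and NCU00972 were under 10 CPM in Δ3βG and Δ3βGΔncu05853. They passed the mean of 10 CPM only through Δ3βGΔcdt2Δncu05853, where they were high. The folds of the 2 nearest, NCU10039 and gh45-1, in Δ3βGΔncu05853 over Δ3βG were 1.53 (0.71 to 3.43) and 1.49 (0.87 to 2.59), so their order by distance is not resolved. Of the lists above, NCU05846 was nearest to cdt-1, at 0.68 and in the 26th place, and clr-2 was in the 55th.

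Genes next to the deleted loci were read as a check on local effects of the deletions, with gene order from the RefSeq assembly NC12. Around clp1, 12 of 16 neighbours (8 on each side) passed the mean of 10 CPM. In Δ3βGΔncu05853, where clp1 is gone, 0 of the 12 were at least 2-fold apart from Δ3βG. Of all genes, only 0.565% were that much higher and 0.672% that much lower, so the count is near that share. The widest apart were NCU05844, 1.93-fold lower (1.58 to 2.36), and NCU05850, 1.49-fold higher (1.41 to 1.57). The immediate neighbours NCU05852 and NCU05854 had 119 and 284 reads in Δ3βG, 140 and 257 in Δ3βGΔncu05853, and 882 and 3501 in Δ3βGΔcdt2Δncu05853. Both were near their Δ3βG level in the strain lacking clp1, and high in the strain lacking cdt-2 as well. In Δ3βGΔcdt2Δncu05853, 7 of the 12 were at least 2-fold above Δ3βG and 3 at least 2-fold below it, against 19.4% and 15.4% of all genes. Scaled on library totals without eas they were 6 and 4, beside 697 higher and 2515 lower of all 6545 genes. Among the 7 was the regulator gene NCU05846, the 6th gene to one side of clp1, with 447, 662 and 19043 reads. Another of the 7, NCU05848, with 4, 4 and 713 reads, passed the mean of 10 CPM only through Δ3βGΔcdt2Δncu05853. The 3 were NCU05844, NCU05858 and NCU05859, the last 2 being the 4th and 5th genes on the other side, at 67.5-fold (53.3 to 86.9) and 55.0-fold lower (34.7 to 93.2).

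Around cdt-2, 10 of 16 neighbours passed, and in Δ3βGΔcdt2Δncu05853 6 of them were at least 2-fold above Δ3βG and 1 at least 2-fold below it, against 19.4% and 15.4% of all genes. Among the 6, NCU08111, NCU08112 and NCU08113 were under 10 CPM in Δ3βG and Δ3βGΔncu05853. They passed only through Δ3βGΔcdt2Δncu05853, where they were high, so the count of 6 is partly set by the filter. The count depended on scaling, with 5 above and 2 below on library totals and 3 of each without eas. So did that of all 6545 genes, with 882 above and 1765 below on library totals and 697 and 2515 without eas. The genes on either side of the deleted gene were among the higher ones. NCU08113 had 17 reads in Δ3βG, 11 in Δ3βGΔncu05853 and 797 in Δ3βGΔcdt2Δncu05853, 54.3-fold higher than in Δ3βG (33.7 to 93.7). msh3 (NCU08115), named for a DNA mismatch repair protein, had 367, 459 and 3996 reads, 12.6-fold higher (11.3 to 14.1). Both were low where cdt-2 is intact and high where it is deleted. In Δ3βGΔncu05853, 0 of the 10 were at least 2-fold apart from Δ3βG, beside 0.565% of all genes higher and 0.672% lower. No strain measured here lacks cdt-2 with the rest of the response at its Δ3βG level, so an effect of the deletion on its neighbours and the difference between the strains as a whole cannot be told apart.

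Around cdt-1, which is intact, 6 of 16 neighbours passed, and 2 of them were at least 2-fold higher in Δ3βGΔcdt2Δncu05853 than in Δ3βG, against 19.4% of all genes. They were NCU00809 and NCU00808, the 8th and 7th genes to one side, with 118 and 130 reads in Δ3βG and 692 and 391 in Δ3βGΔcdt2Δncu05853. The gene next to cdt-1 on that side, NCU00802, had 298, 375 and 298 reads, and the one on the other side, NCU10770, had 0 reads in every library and shows nothing. The next gene on that side, NCU00800, under the mean of 10 CPM, had 2, 6 and 25 reads.

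**Figure D5:**
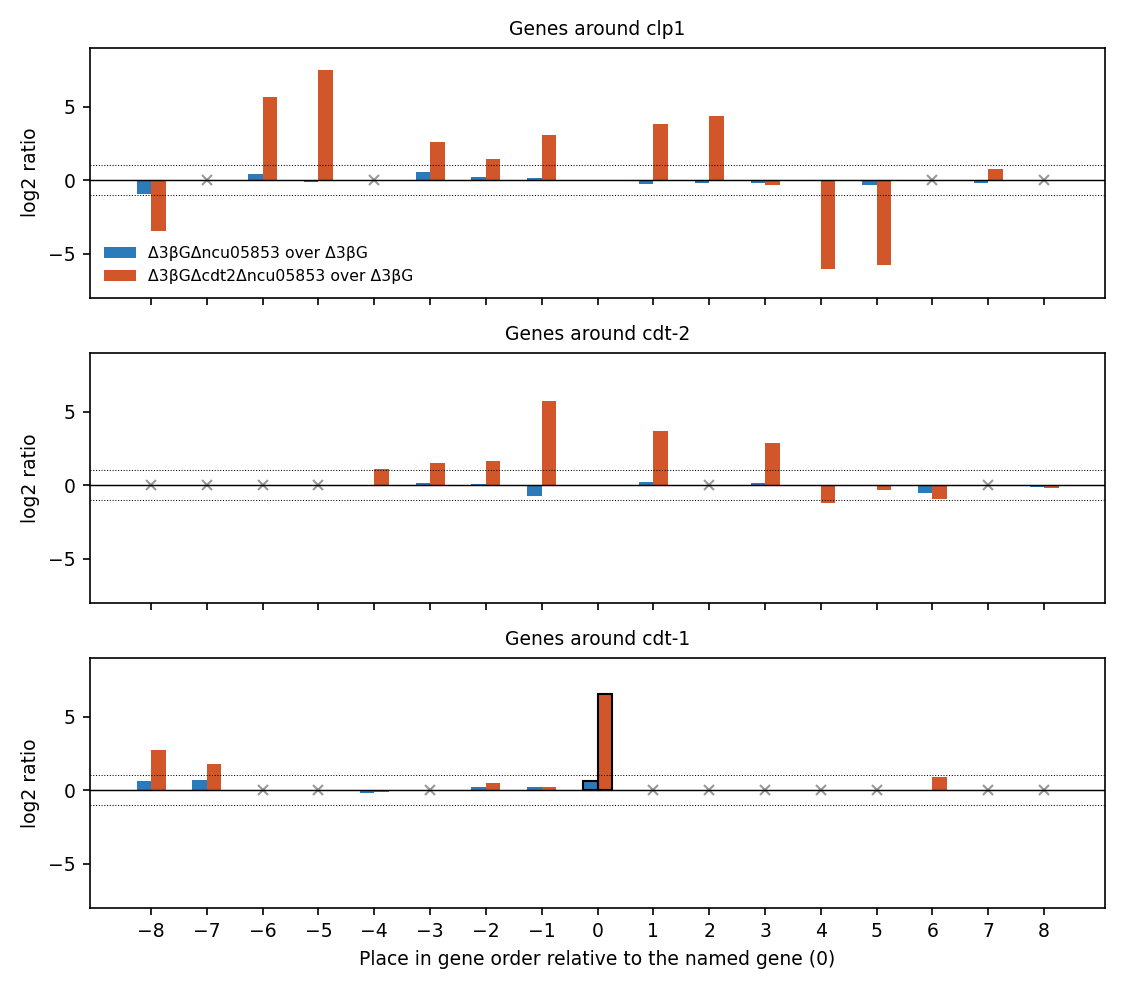
Log2 ratios of the 8 genes on each side of clp1, cdt-2 and cdt-1 in gene order, for Δ3βGΔncu05853 over Δ3βG and Δ3βGΔcdt2Δncu05853 over Δ3βG. Crosses mark genes under the mean of 10 CPM, dotted lines mark 2-fold, and the outlined bars at place 0 are cdt-1 itself, at 0.64 and 6.53; the genes beside clp1 and cdt-2 have tall bars in the second comparison, and NCU00802, at place -1 from cdt-1, has a bar of 0.21.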

How the data were processed

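The 3 libraries, 1 per strain, were grouped by the strain named in the labels. The deposited read counts per gene and the deposited RPKM values were made by the authors with TopHat and HTSeq, per the submitters' processing notes. Versions, settings, annotation, genome build and strand use were not given in the sources used here, so reads of overlapping genes cannot be separated. RPKM matched counts divided by exon length and all reads in the file, per a recomputation, and served for levels of different genes within a library. Of all reads, 83.2% to 91.5% were assigned to genes, 5.16% to 9.64% lay outside genes and 2.48% to 6.36% aligned to several places. The last are missing from the counts, which may lower those of near-identical genes. Reads naming no gene were left out of library sizes.

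Counts were scaled with TMM factors (edgeR 4.0.16, R 4.3.3), 1.10, 1.09 and 0.833, and log2 ratios used a prior of 0.5 counts. Folds carry no prior and have exact conditional Clopper-Pearson intervals at 95%. The 5 deleted genes were left out of the 6545 genes compared. With 1 library per strain there was no test, and a 2-fold difference was the limit for counting a gene. Scaling and ratios were tested on simulated data with few genes changed, as many up as down. Far more genes differed in Δ3βGΔcdt2Δncu05853, so the simulation does not test the scaling of that library. Alternatives were 5 other scalings, DESeq2 1.42.0 size factors among them, a prior of 5 counts, and lower filters. Of 9730 identifiers 9729 matched RefSeq NC12, used for symbols and gene order only. The name clp1 comes from the series. The members, the lists and the rule for named genes (members, list genes, the 8 neighbours on each side, the 10 genes most like cdt-1) were chosen with earlier results of these data known. No sequence is shown.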

Additional observations from a re-analysis of the deposited data

How the results depend on the processing

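No paired analysis was possible because each strain has 1 library, and no library could be left out of a comparison. The log2 ratios of cdt-1 and cdt-2 in Δ3βGΔncu05853 over Δ3βG stayed within their counting intervals under the 5 other scalings and the prior of 5 counts, as did the residual levels of the deleted genes under the 5 scalings. The log2 ratio of cdt-1 in Δ3βGΔcdt2Δncu05853 over Δ3βG, 6.53, was 6.13 on library totals, 6.27 on all reads, 5.83 without eas and 6.15 without the 50 genes with most counts. Over Δ3βGΔncu05853, 5.89 became 5.50, 5.59, 5.18 and 5.49. Levels per kilobase on TMM library sizes were 30.6, 47.7 and 2829 for cdt-1 in Δ3βG, Δ3βGΔncu05853 and Δ3βGΔcdt2Δncu05853, 99.96 and 136.7 for cdt-2 in the first 2, and 272 for clp1 in Δ3βG. The cause of these shifts is the scaling itself.

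For all genes, Δ3βGΔcdt2Δncu05853 over Δ3βG gave 1713 lower genes without the 50 top genes, 1986 higher and 1607 lower with no filter, 697 higher and 2515 lower without eas, and 1765 lower on library totals. Over Δ3βGΔncu05853 it gave 556 higher and 2455 lower without eas, 1750 and 1315 with no filter, and 1541, 1300 and 1571 lower on library totals, all reads and without the top 50. Δ3βGΔncu05853 over Δ3βG gave 115 higher and 99 lower genes at a mean of 1 CPM, and 342 and 293 with no filter. Of 27 list genes that passed, those lower over Δ3βG went from 2 to 4 on library totals and to 4 without eas. Over Δ3βGΔncu05853 they went from 1 to 2 on library totals, 2 on all reads, 2 without the top 50 and 3 without eas. Of 1206 values of single named genes, 1141 kept their side of 2-fold, 47 came under it and 18 passed it. Of the values at least 2-fold apart with TMM factors, 0 changed sign. Changes of sign among values within 2-fold were not counted.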
